A study of Mus musculus with 2 samples.

Results

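Accessible chromatin was described at 10 genes of cytokine signalling in mouse regulatory T cells, which keep other immune cells in check. The genes are the Janus kinases Jak1 and Jak3, the transcription factors Stat3, Stat5a, Stat5b and Stat6, and the feedback inhibitors Socs1, Socs2, Socs3 and Cish. Their regions were those of the deposited lists that overlap a gene body or the 10 kb to either side of it. Of all listed regions, 80 of 68903 in replicate 1 and 93 of 78262 in replicate 2 met this rule.

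The assay was ATAC-seq, in which a transposase inserts sequencing adapters where DNA is open. The series holds 1 group of 2 libraries, so no condition is compared and no test between groups exists. The group consists of regulatory T primary cells of the strain C57BL/6NJ, with age unknown and sex not collected. A linked protocol on the differentiation of CD4 T cells was not read, and the entry names of the lists hold 72 hours. One donor identifier is shared by both libraries, so they may not come from separate animals, and the spread between replicates may be technical. Those names further contain ASTARR and insert, terms that the labels leave unexplained. Promoters of all 5 regulatory T cell markers (Foxp3, Il2ra, Ctla4, Ikzf2 and Tnfrsf18) and all 7 T cell markers had a region in both lists. So had 2 of 5 B cell markers, Cd79b and Pax5, but none of the 5 myeloid or the 5 hepatocyte markers. The lists hold no counts, so the depth is unknown, and in bulk material a region open in few cells cannot be told apart from one weakly open in all.

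Cytokine receptors of this pathway have no kinase of their own and carry Janus kinases on their intracellular tails. When a cytokine joins the receptor chains, the kinases phosphorylate the receptor and then STAT proteins, which pair, enter the nucleus and bind DNA at the motif TTCNNNGAA, called GAS. Among the genes that STATs switch on are Cish and some other genes of the SOCS family, whose proteins bind the receptors or kinases and dampen the signal. Regulatory T cells depend on interleukin-2, which acts through JAK1, JAK3 and STAT5 and helps to maintain Foxp3.

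The sequences that follow were picked for their GAS matches, and most were taken from the feedback inhibitors. They are written 5′ to 3′ on the strand of the gene, on GRCm38 (mm10), with GAS matches in capitals. The first stretches lie inside the accessible regions at the start sites of Socs2, Cish, Socs3 and Socs1. They are shown because Socs2 and Cish hold closely spaced matches there, which were chosen after the matches had been counted. A further single match each in the start regions of Socs2 and Cish is not printed. The single matches in the start regions of Jak1 and Stat5a are not printed either. The Cish stretches lie in exon 1 of the GENCODE transcript, in its 5′ UTR.
Socs2, chr10:95416904-95416923, minus strand: TTCCTGGAAagTTCCTGGAA
Cish, chr9:107296659-107296678, plus strand: TTCCTGGAAagTTCTTGGAA
Cish, chr9:107296764-107296789, plus strand: TTCTAGGAAgatgaggcTTCCGGGAA
Socs3, chr11:117969239-117969247, minus strand: TTCCAGGAA
Socs3, chr11:117969512-117969520, minus strand: TTCTTAGAA
Socs1, chr16:10785981-10785989, minus strand: TTCCAAGAA

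The Socs2 stretch and the first Cish stretch had the same layout, a pair of matches whose first bases stood 11 bp apart with the same 2 bases between them. They were identical at 19 of 20 bases. The single difference was C15T, with positions counted from 1 at the 5′ end of the Socs2 stretch, the Socs2 base first and the Cish base last. The second Cish pair had its first bases 17 bp apart. The first base of the first Cish pair, at 107296659, is also the start site that RefSeq gives for Cish.

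The promoter table of RefSeq (GRCm38) had 11 entries for 9 of the 10 genes, all but Socs2. In the 250 bases before the start, 1 of the 11 entries held a GAS match, that of Socs3, where 7.02% of 32851 entries of the table did. The Socs3 match began at position -154 from that start.
Socs3, RefSeq, chr11:117969367-117969616, minus strand: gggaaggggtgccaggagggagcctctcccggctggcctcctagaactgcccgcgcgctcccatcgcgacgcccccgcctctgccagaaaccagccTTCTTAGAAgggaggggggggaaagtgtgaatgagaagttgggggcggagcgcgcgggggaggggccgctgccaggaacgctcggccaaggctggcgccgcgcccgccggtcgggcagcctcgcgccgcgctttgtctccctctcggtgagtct

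Away from promoters, the region of each gene with the highest mean percentile by -log10 q over both lists, here called its leading distal region, was searched within 100 bp of its replicate 1 summit. Of the 10, 3 held a GAS match. The Stat5b region lies in intron 1, and the Socs1 and Cish regions lie between genes. In the Socs1 sequence both matches stand in the first part, upstream of the summit.
Stat5b, chr11:100844237-100844437, minus strand: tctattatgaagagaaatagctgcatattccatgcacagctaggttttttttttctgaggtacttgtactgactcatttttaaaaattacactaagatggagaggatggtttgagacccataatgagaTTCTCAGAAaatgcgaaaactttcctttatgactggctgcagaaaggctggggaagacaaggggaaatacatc
Socs1, chr16:10772182-10772382, minus strand: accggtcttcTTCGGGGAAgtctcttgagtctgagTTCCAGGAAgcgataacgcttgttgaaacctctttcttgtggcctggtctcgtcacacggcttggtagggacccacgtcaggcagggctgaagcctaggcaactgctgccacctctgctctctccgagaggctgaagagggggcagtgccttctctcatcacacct
Cish, chr9:107312941-107313141, plus strand: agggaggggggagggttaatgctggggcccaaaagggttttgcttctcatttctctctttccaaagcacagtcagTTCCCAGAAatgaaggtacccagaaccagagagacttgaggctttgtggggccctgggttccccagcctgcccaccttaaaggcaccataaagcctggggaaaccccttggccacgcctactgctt

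All 10 promoters were accessible in both replicates, where a promoter is the 1 kb to either side of any start site. Of 21938 protein-coding genes, 64.4% met that criterion. The 10 windows covered 509.822 kb, and their regions merged into 96 stretches, of which 74 were replicated, 5 were in the list of replicate 1 alone and 17 in that of replicate 2 alone. In replicate 1, 93.8% of the regions in the windows were overlapped by a region of replicate 2, against 93.2% of the whole list. In replicate 2 the share was 81.7% in the windows, against 81.6% of the whole list. Regions near these genes thus recurred about as often as listed regions in general.

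Regions without a partner were weaker than those with one. The 5 regions of replicate 1 alone had -log10 q values between 1.96 and 9.27, where the 75 overlapped regions had a median of 38.0. The 17 regions of replicate 2 alone lay between 1.94 and 21.9, where the 76 overlapped regions had a median of 58.5. The one of the 17 with the highest -log10 q lay 19.4 kb downstream of the Socs2 start, with a -log10 q of 21.9. Where both lists had a region, the summits stood a median of 17.5 bp apart, and 51 of 74 pairs stood within 50 bp.

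Of the 74 replicated regions, 16 overlapped the promoter of a member, 6 overlapped only promoters of neighbouring genes and 52 lay away from promoters. Starts of every annotated transcript were counted, and 4 of the 16 lay at Stat3. Regions near a gene need not act on it. Stat5b, Stat5a and Stat3 are neighbours on chromosome 11, and 6 replicated regions lay in the windows of more than 1 of them. These 6 count in each window below and once in the total.

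**Figure D1:**
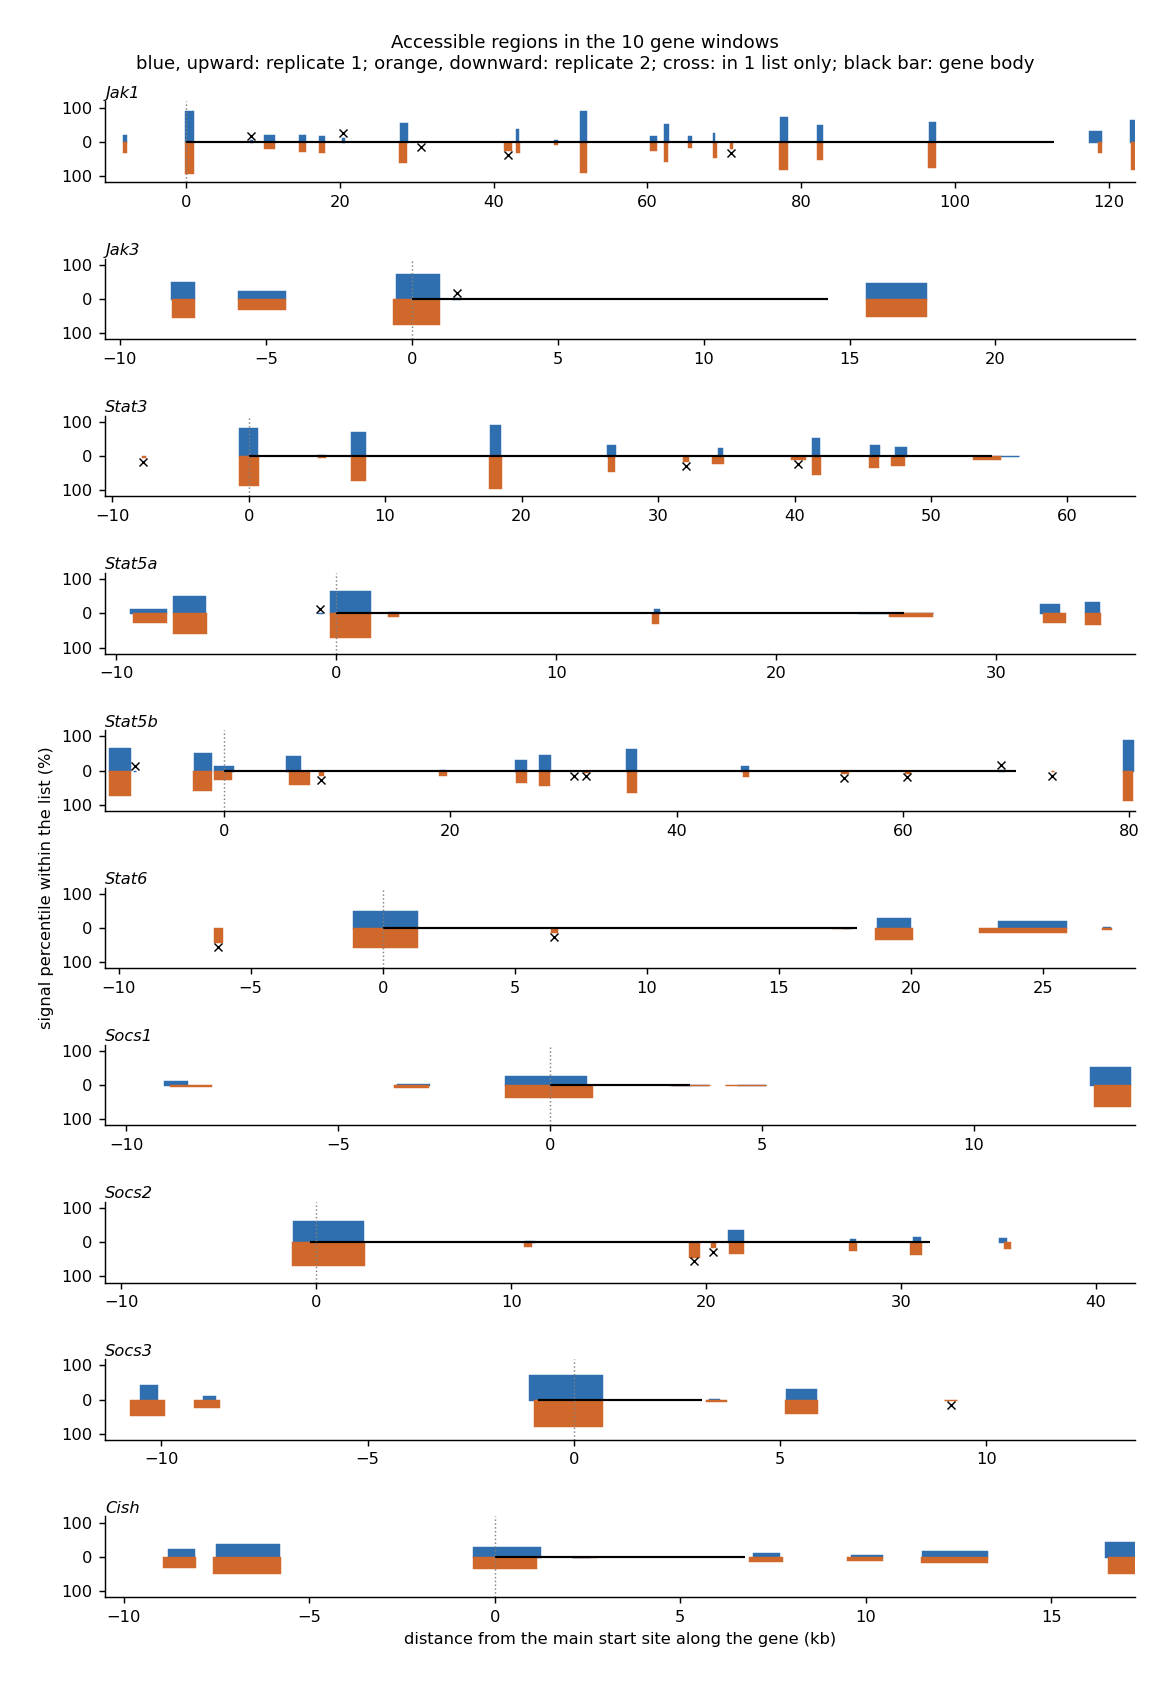
Accessible regions of replicate 1 (blue, upward) and replicate 2 (orange, downward) in each gene window, by distance in kb from the main start site; the height is the percentile of the region's signal within its list, and a cross marks a region of 1 list alone. Stat3 and Jak1 had tall regions in intron 1 in both lists, and Cish, Socs1 and Stat6 had wide regions of low signal percentile.

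All 10 windows held more replicated regions than the mean of protein-coding genes of their class of window length, taken in 10 classes. The class of the longest windows, that of Jak1, ran from 130 to 4455 kb, where the Jak1 window spans 133 kb. With 100 classes all 10 windows were above the mean too. Over all protein-coding genes 45.9% were above their class mean, and among genes with an accessible promoter 64.1% were. The median ratio to the class mean was 2.57 for the 10 members, against 0.849 for all genes and 1.23 for genes with an accessible promoter. Cish had the highest ratio with 8 replicated regions and a class mean of 1.62, a ratio of 4.93. Jak3 had the lowest with 4 replicated regions and a class mean of 2.39, a ratio of 1.67. With only the 50000 strongest regions of each list by signal, 6 of 10 windows exceeded their class mean, where 46.3% of all genes did, so the count of windows was then near the background. Of the promoters, 8 remained accessible, where 59.4% of all genes had one, and those of Socs1 and Cish dropped out. With the 50000 strongest by -log10 q, 9 windows exceeded it, against 43.7% of all genes, and 10 promoters remained.

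**Figure D2:**
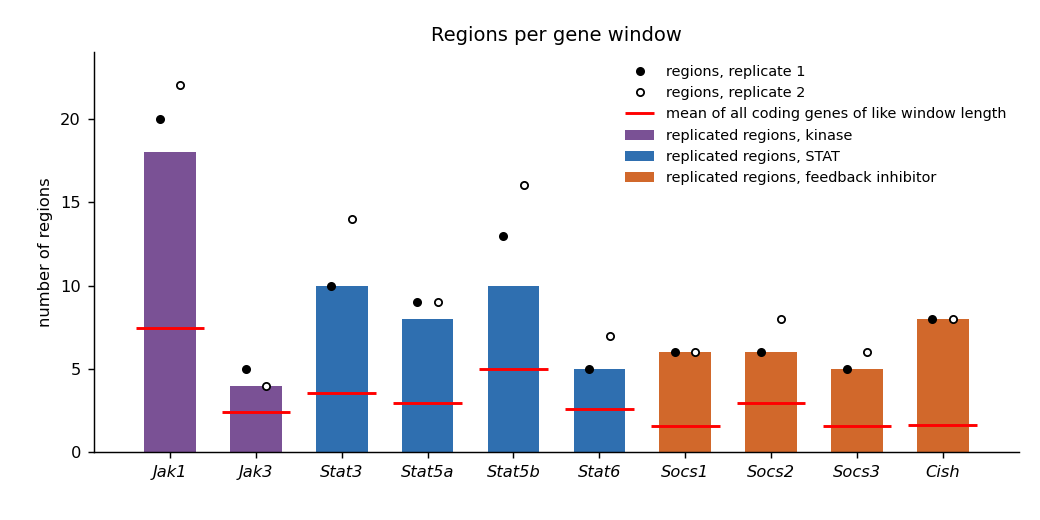
Regions per gene window: bars give replicated regions, filled and open points the regions of replicate 1 and replicate 2, and red lines the mean number of replicated regions over all protein-coding genes of similar window length. Every bar lies above its line, with 18 regions at Jak1 and 4 at Jak3. The line of Jak1 is for windows from 130 to 4455 kb.

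At the start sites, the 10 genes differed more from each other than the replicates did. The signal of the region, whose scale is not stated, lay between 3.53 and 13.4 in replicate 1 and between 3.94 and 13.5 in replicate 2. The signal exceeded the median of all promoter regions (9.71 in replicate 1 and 9.48 in replicate 2) at 2 of the 10 genes in replicate 1 and at 3 in replicate 2. The -log10 q exceeded the median of all promoter regions (81.9 and 110) at 9 of 10 genes in both, and so did the width (1087 and 1132 bp). The 10 main start regions were thus mostly wider and higher in -log10 q than those medians, and not higher in signal. Stat5b was the exception in -log10 q, and Jak1 in width. The sets are unlike, since the medians take in every region near any annotated start, weak regions at secondary starts included. Such regions of the members were left out of these counts. The Stat6 region in the 3′ UTR, for example, had a -log10 q of 5.21 in replicate 1 and 4.24 in replicate 2.

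**Figure D3:**
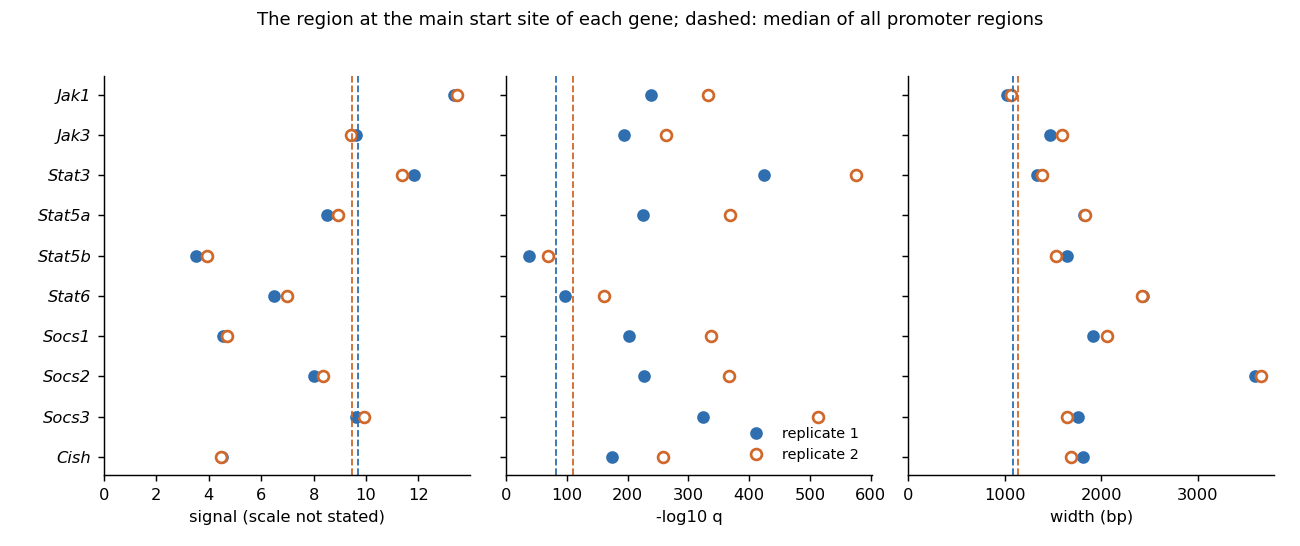
Signal, -log10 q and width in bp of the region at the main start site of each gene, with filled points for replicate 1, open points for replicate 2 and dashed lines for the medians of all promoter regions. Stat3 had the highest -log10 q, Stat5b the lowest, and the Socs2 region was the widest.

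Jak1 encodes a kinase that serves the receptors of many cytokines, interleukin-2 and the interferons among them. It lies at chr4:101152367-101265282 on the minus strand. Replicate 1 listed 20 regions in the window and replicate 2 listed 22, and 18 were replicated, the most of the 10 genes. The window is also the longest, and its 1.35 replicated regions per 10 kb lay toward the low end of the range from 1.11 at Stat5b to 2.99 at Cish. The promoter region had a signal of 13.4 in replicate 1 and 13.5 in replicate 2, the highest of the 10 genes in both, and its summit stood at -14 and -18 bp from the start, where negative values lie upstream. Of the other regions, 14 had their summit in an intron of Jak1. The leading distal region lay in intron 1, 51.6 kb downstream of the start, with its summit at the same base in both lists. Its signal was 13.5 in replicate 1 and 12.5 in replicate 2, as high as at the promoter in replicate 1. Its -log10 q was 162 and 198. A region in intron 4, 77.8 and 77.7 kb downstream, had a -log10 q of 128 and 226, lower in replicate 1 and higher in replicate 2.

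Jak3 encodes the kinase that sits on the common gamma chain shared by the receptors of interleukin-2 and its relatives. It lies at chr8:71676296-71690575 on the plus strand. Replicate 1 listed 5 regions and replicate 2 listed 4, and 4 were replicated, the fewest of the 10 genes. The promoter region had a signal of 9.61 and 9.43 and a -log10 q of 194 and 264, with summits in exon 1, 135 and 138 bp downstream of the start. No replicated region had its summit in an intron of Jak3. Both upstream regions overlapped promoters of Unc13a, which regulates synaptic vesicle release. The only region away from promoters had its summit in an exon of the downstream gene B3gnt3, which encodes a glycosyltransferase, 16.6 and 16.4 kb from the Jak3 start. Its -log10 q was 43.9 in replicate 1 and 61.4 in replicate 2.

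Stat3 encodes the transcription factor that answers interleukin-6 and interleukin-10. The gene lies at chr11:100885098-100939540 on the minus strand. Its promoter region had a -log10 q of 425 in replicate 1 and 575 in replicate 2, the highest of the 10 genes. Those values stood at percentile 99.8 and 99.7 of their lists, and the signal of 11.9 and 11.4 stood at percentile 83.8 and 83.1. The summits lay at the same base in both lists, at -192 bp from the start. The window had 10 regions by replicate 1 and 14 by replicate 2, of which 10 were replicated. Intron 1 held a region 18.1 kb downstream of the start with a signal of 13.9 and 14.2, above that of the promoter in both lists. Its summit was also at the same base in both, and it held an AP-1 match (TGANTCA) and a TCF/LEF match (CTTTGAA) but no GAS match near the summit. A second region of intron 1, 7.90 and 7.96 kb downstream, had a signal of 9.44 and 8.95.

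Stat5a and Stat5b encode the closely related factors that carry the interleukin-2 signal. They lie head to head on chromosome 11, Stat5a at chr11:100859351-100885169 on the plus strand and Stat5b at chr11:100780731-100850724 on the minus strand. The Stat5a window held 9 regions in each replicate, 8 of them replicated, and the Stat5b window held 13 by replicate 1 and 16 by replicate 2, 10 of them replicated. Their start regions differed. At Stat5a the signal was 8.51 in replicate 1 and 8.93 in replicate 2, with a -log10 q of 225 and 369. At Stat5b the signal was 3.53 and 3.94, with a -log10 q of 38.0 and 68.7, the lowest of the 10 genes on both measures. Both replicates thus had the Stat5a start region above that of Stat5b.

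The Stat5a summit stood 1073 bp downstream of the GENCODE start in both lists, which is at -60 bp from the second of its RefSeq starts. Stat5b has a second RefSeq start inside the gene, 28.2 kb downstream of the main one. The region there had a signal of 6.05 and 5.19, above that of the region at the main start in both lists, and a -log10 q of 75.6 and 79.8. The leading distal region of Stat5b was that of intron 1 printed above, 6.39 and 6.40 kb downstream of the start. Its signal was 5.86 in replicate 1 and 4.94 in replicate 2, and it held an AP-1 match beside the GAS match. Its -log10 q was 62.5 and 64.6. Another region of intron 1, 36.0 kb downstream, had a higher signal in both lists, 8.32 and 7.84, with a -log10 q of 52.7 and 65.9.

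Between the start sites of Stat5b and Stat5a stood a region at chr11:100851910-100853378 in replicate 1, at -1.65 kb from the Stat5b start. Its signal was nearly equal in the lists, 6.65 in replicate 1 and 6.98 in replicate 2, with summits 2 bp apart. Its -log10 q was 131 in replicate 1 and 5.84 in replicate 2, a ratio of replicate 2 to replicate 1 of 0.045. Over 62389 regions matched 1 to 1 between the lists the median of that ratio was 1.48, and no pair had a lower one. The region was singled out after its values were seen, and what set the low value was not tested.

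Stat6 encodes the factor that answers interleukin-4 and interleukin-13. The gene lies at chr10:127642986-127660957 on the plus strand. In the window, replicate 1 had 5 regions and replicate 2 had 7, and 5 were replicated. The start region was 2431 bp wide in replicate 1 and 2426 bp in replicate 2, and its summits stood 807 and 792 bp downstream of the start, in intron 1. Its signal was 6.49 and 6.97, and its -log10 q was 96.6 and 161. The leading distal region lay within Nab2, a neighbour that encodes a corepressor of EGR factors, 19.4 kb from the Stat6 start. It had a signal of 4.69 in replicate 1 and 4.46 in replicate 2, with a -log10 q of 91.8 and 125. No replicated region of this window held a match to either spacing of the GAS motif, including the spacer of 4 bases that STAT6 prefers, near the summit.

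Socs1 encodes an inhibitor that binds Janus kinases directly and blocks their activity. It is found at chr16:10782240-10785536 on the minus strand. Its window held 6 regions in each replicate, and all 6 were replicated, against a class mean of 1.57. The start region was 1917 bp wide in replicate 1 and 2054 bp in replicate 2. Its signal of 4.52 and 4.70 was low for a promoter, at percentile 27.5 and 36.1 of the lists, while its -log10 q of 202 and 338 stood at percentile 94.9 and 96.8. The region between genes 13.3 and 13.2 kb downstream of the start was close to it in rank, with a signal of 6.89 and 7.34 and a -log10 q of 197 and 318. It is the region with a pair of GAS matches printed above. The other regions of the window were weaker. Upstream, 1 of them overlapped the promoter of Tnp2, a gene of sperm chromatin, with a -log10 q of 44.1 in replicate 1 and 63.7 in replicate 2.

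Socs2 encodes an inhibitor best known for restraining growth hormone signalling through STAT5. Its position is chr10:95385362-95417180 on the minus strand. Its start region was the widest of the 10, 3590 bp in replicate 1 and 3657 bp in replicate 2, and both widths stood at percentile 99.9 of all promoter regions of their list. The signal was 8.02 and 8.35, and the -log10 q was 226 and 366. The first bases of the GAS pair lay 69 and 80 bp downstream of the replicate 1 summit, and both matches lay upstream of the main start site. The other regions were weak. Of 8 regions in replicate 2 and 6 in replicate 1, 6 were replicated, and the leading distal region, 21.4 and 21.3 kb downstream, had a -log10 q of 15.1 and 14.1. The Socs2 window was thus dominated by 1 wide region.

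Socs3 encodes an inhibitor of receptors that use gp130, such as that of interleukin-6. The gene lies at chr11:117966079-117970047 on the minus strand. In the window, replicate 1 had 5 regions and replicate 2 had 6, and 5 were replicated, against a class mean of 1.57. The start region had a signal of 9.62 and 9.93 and a -log10 q of 325 and 513, and its -log10 q came next to that of Stat3 among the 10 genes in both lists. Its summits lay at -97 and -98 bp from the GENCODE start and 83 and 82 bp downstream of the RefSeq start. Of its 2 GAS matches, 1 began 36 and 37 bp downstream of those summits. The leading distal region, 5.55 kb downstream of the start, had its summit at the same base in both lists, a signal of 4.77 and 5.00 and a -log10 q of 36.4 and 59.4. A region at -10.4 kb from the start had a higher signal in both lists, 5.87 and 5.66, with a lower -log10 q of 13.6 and 19.4.

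Cish encodes CIS, an inhibitor induced by STAT5 that restrains interleukin-2 and T cell receptor signalling. The gene lies at chr9:107296026-107302784 on the plus strand. Its window held 8 regions in each replicate, and all 8 were replicated. The regions covered 31.2% of the window in replicate 1 and 33.0% in replicate 2, the most of the 10 genes, where Jak1 had 9.82% and 10.8%. The start region had a signal of 4.50 and 4.46 and a -log10 q of 174 and 259, with summits 577 and 548 bp downstream of the GENCODE start, which is at -56 and -85 bp from the RefSeq start. Downstream of the gene stood 4 further regions. The farthest, between genes at 17.0 kb, had its summit at the same base in both lists, a signal of 5.83 and 5.94 and a -log10 q of 166 and 265. Only its near part overlapped the window, and its summit and GAS match lay just past the end of the window. Of the 2 regions upstream, 1 overlapped the promoter of Mapkapk3, which encodes a kinase of the p38 pathway.

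The regions at Cish, Stat6 and Socs1 ranked far higher by -log10 q than by signal. At Cish the median difference between the percentiles of a region was 58.7 points in replicate 1 and 56.1 points in replicate 2. Of 6849 windows of protein-coding genes with at least 4 replicated regions, 4 had a larger median difference in replicate 1 and 6 in replicate 2. The difference was 48.8 and 48.0 points at Stat6, with 30 and 26 windows above it, and 35.9 and 40.7 points at Socs1, with 178 and 100 above it. Jak1, Jak3, Stat3, Stat5a, Stat5b and Socs3 had positive differences too. They ran from 15.9 points at Stat3 to 31.0 at Stat5b in replicate 1, and from 15.5 at Jak1 to 27.9 at Jak3 in replicate 2. Socs2 had the lowest of the 10 genes, -0.94 and -1.53 points, near the median over the 6849 windows of -0.031 and 0.685 points. Why the measures ranked these regions apart was not tested.

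**Figure D4:**
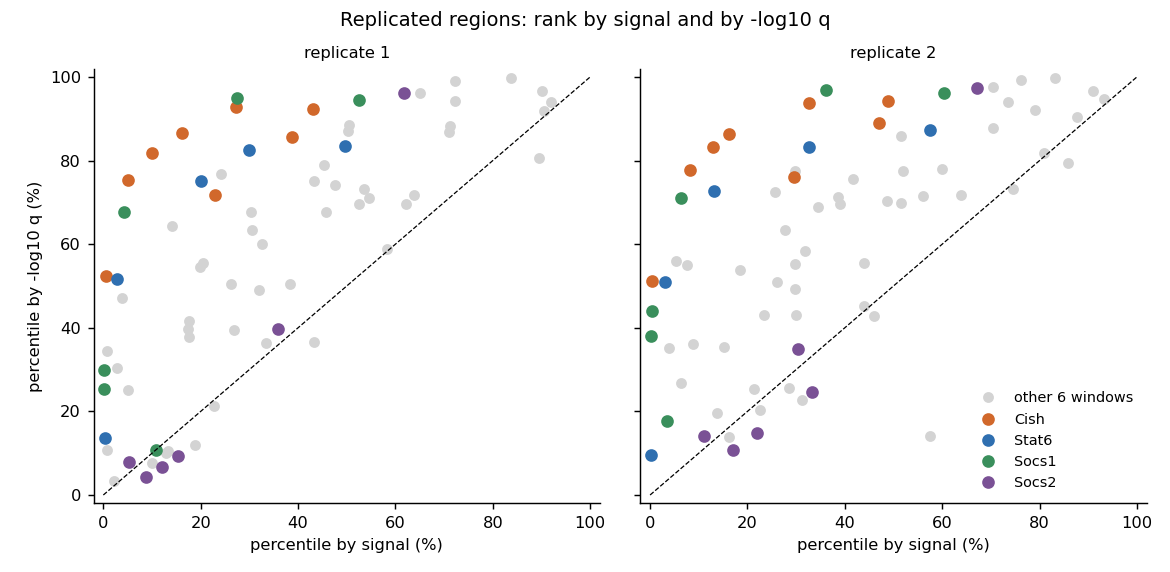
Percentile of each replicated region by signal (horizontal) and by -log10 q (vertical) within the list of replicate 1 (left) and replicate 2 (right), with Cish, Stat6, Socs1 and Socs2 coloured, the other 6 windows in grey and the dashed line at equal percentiles. All 8 Cish regions lie well above the line in both lists, while most of the Socs2 regions lie near or below it.

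Over all 74 replicated regions, GAS matches near the summit were about as common as elsewhere. A match to TTCNNNGAA, which reads the same on both strands, lay within 100 bp of the summit in 9 of 74 regions, 12.2%, in each replicate. These were not all the same regions, since 8 had a match in both replicates and 10 in at least 1. Of all replicated regions, 13.4% in replicate 1 and 13.5% in replicate 2 had one. For the GAS motif with a spacer of 4 bases the members had 6.76% and 8.11%, against 5.62% and 5.67%. AP-1 matches (TGANTCA, both strands) stood at 14.9% and 16.2% of the summits, against 18.6% and 19.0%. RUNX matches (TGTGGTT, both strands) stood at 8.11% in both replicates, against 8.81% and 8.82%. A match is a description of letters and not a bound site.

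The GAS matches were spread unevenly over the 10 genes, a split made after the matches had been counted. In the windows of the feedback inhibitors 7 of 25 replicated regions, 28.0%, had a match near the summit in each replicate. Of the 25, 6 had one in both replicates and 8 in at least 1. In the windows of the kinases and STATs 2 of 49, 4.08%, had one, the same regions in both replicates. The share over all replicated regions was 13.4% in replicate 1 and 13.5% in replicate 2. Region width did not enter the counts near the summit, where the stretch searched had a fixed length. Width bears on a search of whole regions. The median widths were similar, 741 and 851 bp at the feedback inhibitors and 820 and 817 bp at the kinases and STATs. Searched over their whole length in replicate 1, 10 of 25 regions, 40%, and 10 of 49, 20.4%, held a match. Of all replicated regions 28.4% did, so the contrast was smaller than near the summit. The kinase and STAT regions with a match near the summit lay in intron 1 of Jak1, 17.7 kb downstream of the start, and in intron 1 of Stat5b.

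Within the whole start regions, all 4 feedback inhibitors held at least 1 match, against 2 of the 6 kinases and STATs. Of all replicated promoter regions, 24.9% in replicate 1 and 26.5% in replicate 2 held one. Among promoter regions within 20% of the width of each feedback inhibitor region, the share was higher. It was 34.2% and 35.9% for Socs1, 52.9% and 51.9% for Socs2, 32.4% and 30.9% for Socs3 and 33.1% and 31.8% for Cish. For the kinases and STATs it ran from 23.6% and 24.2% at Jak1 to 40.6% and 41.0% at Stat6. The Cish region held 5 matches, and 0.092% of 3255 promoter regions within 20% of its width held as many in replicate 1, and 0.065% of 4620 in replicate 2. The Socs2 region held 3, as did or exceeded 5.75% of 87 and 5.56% of 108 regions of like width. The Socs3 region held 2, which 6.87% and 6.64% of regions of like width reached. Pairs whose first bases stood at most 25 bp apart occurred at Cish and Socs2, and at 0.318% of 16370 and 0.33% of 16361 promoter regions. Of promoter regions of like width, 0.338% and 0.368% held such a pair for Cish, and 2.30% and 1.85% for Socs2. Jak1 and Stat5a held 1 match each, and Jak3, Stat3, Stat5b and Stat6 held none.

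**Figure D5:**
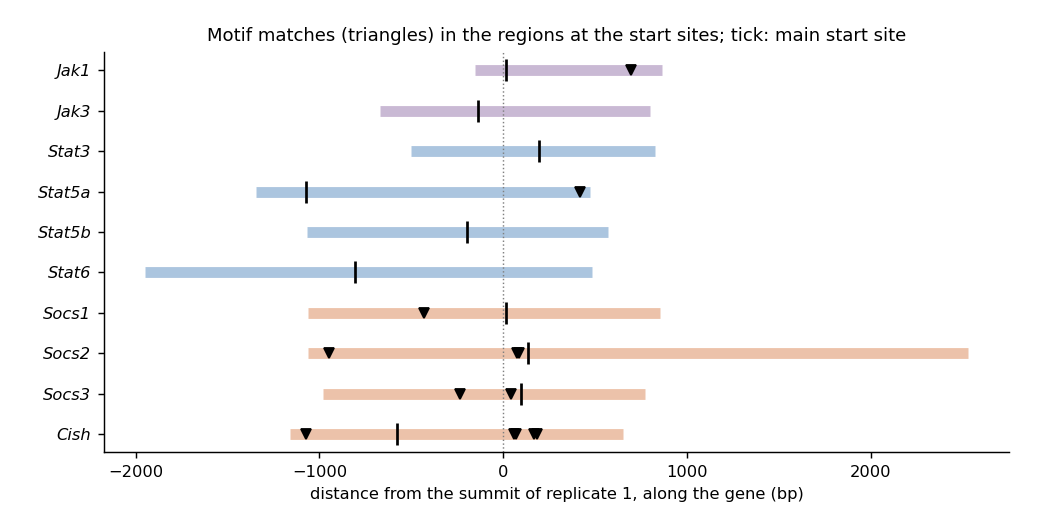
Positions of GAS matches (triangles) in the replicate 1 regions at the start sites, in bp from the summit along the gene; bars give the extent of each region (purple for kinases, blue for STATs, orange for feedback inhibitors) and ticks the main start site. Cish had 5 matches, 4 of them 56 to 178 bp downstream of the summit, and Socs2 a pair between the summit and the start site.

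The rest of the pathway was mostly accessible too. Promoters were accessible in both lists at the 2 other Janus kinase genes, the 3 other STAT genes and the 4 other SOCS genes. So were those of 9 genes of PIAS proteins and phosphatases, 18 receptor subunits and 15 known STAT5 targets. That is every gene of these lists, against 64.4% of all protein-coding genes. Above their class mean were 2 of 2 Janus kinases, 3 of 3 STATs, 8 of 9 PIAS and phosphatase genes, 18 of 18 receptor subunits and 13 of 15 STAT5 targets, against 45.9% of all genes and 64.1% of genes with an accessible promoter. Of the other SOCS genes, 1 of 4 was above the class mean. Their median ratio was 0.854, where that of the feedback inhibitors among the members was 3.51. Socs6 held 7 replicated regions and Socs4 and Socs5 held 2 each, which was below the class mean in all 3, and Socs7 reached a ratio of 1.70.

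The genes with the most and the fewest replicated regions of their lists were as follows. Jak2 held 6 and Tyk2 held 5. Stat4, which answers interleukin-12, held 18, and Stat2, which answers type I interferon, held 3. The phosphatase gene Ptprc (CD45) held 16 and Pias3 held 2. Among receptor subunits, Il2ra held 17, and Ifngr1, Il10ra and Il9r held 3 each. Among STAT5 targets the survival gene Bcl2 held 25, and the granzyme gene Gzmb and the kinase gene Pim3 held 1 each.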

How the data were processed

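The deposited files are 1 list of accessible regions per library in narrowPeak form on mm10, each derived from a single library's alignments and not from pooled reads, per the file headers and accompanying text files. The authors' files give each region a score (not used), a signal of unstated scale, −log10 p- and q-values and a summit. The aligner, the peak caller, their versions, filters and any transposase offset were not given in the sources used here. The signal and −log10 q are the authors' values per peak and were used only to describe and rank regions within a list. Sequencing depth is unknown.

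Regions were compared with GRCm38, GENCODE M21 and RefSeq starts using Python 3.11.15, pandas 2.3.3, numpy 2.4.6 and pysam 0.24.0. A region was replicated where regions of both lists overlapped by at least 1 bp. Gene windows ran from 10 kb before to 10 kb after each gene body. Overlap and motif counting were tested on simulated data. The members and gene lists were chosen with earlier results of these data known. The text names all 10 members, the start region and the replicated region away from promoters with the highest mean −log10 q percentile of each, and the list genes with the most and fewest replicated regions. With 1 group of 2 replicates no test was made, and shares over members stand beside the same shares over all genes or regions. Alternative windows, thresholds, overlaps and single replicates were tried.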

Additional observations from a re-analysis of the deposited data

How the results depend on the processing

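No paired analysis was possible because the series has 1 group and no comparison comes from a test. The mean number of regions in the 10 windows, 86.5 over the lists, was 57.5 in gene bodies alone, 167 with 50 kb to either side and 35.0 among the 50000 strongest regions by signal. The replicated regions, 74, became 48, 144 and 30 under the same settings. When 1 replicate was left out no region could be replicated, so all regions of the other list were counted. These were 80 in replicate 1 and 93 in replicate 2, and the mean over the lists took the same values. Windows above their class mean were 6 in place of 10 among the 50000 strongest by signal, with Stat5a, Stat6, Socs1 and Socs2 at or below it, where 46.3% of all genes were above. With either replicate left out, windows above the mean remained 10 by all regions of the other list, and accessible promoters remained 10. The share of replicated regions with TTCNNNGAA, 12.2% within 100 bp of the summit, was 6.76% within 50 bp, 18.9% within 150 bp and 27.0% over the whole region, where all replicated regions had 7.89%, 17% and 28.4%. In an alternative added after seeing the data, the feedback inhibitor windows had 4 of 25 regions with a match within 50 bp and 10 of 25 within 150 bp, and the kinase and STAT windows 1 and 4 of 49. Of 80 recounts of single windows, 52 stayed within 1.5 times the first count. Socs2 fell to 2 replicated regions with a −log10 q of at least 5, and Stat5b held 16 regions when replicate 2 was counted by itself. Without read counts, no interval can be given for any region, and the weak regions listed in 1 replicate cannot be told apart from regions missed in the other.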
